A study of Homo sapiens with 6 samples.

Results

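The genes described here are the hypoxia and glycolysis genes of hTERT RPE-1 cells: the oxygen-regulated HIF transcription factors, the proteins that control their stability, the enzymes and transporters of glycolysis, and other genes that HIF is known to induce. They were given as a list of 39 symbols, and 37 of these had a row in the deposited table of 13696 distinct genes. EGLN3 and ALDOC had no row and were not analysed here. All 37 passed the filter on low values, which left 13616 genes in the test. hTERT RPE-1 is a human retinal pigment epithelial line immortalised with telomerase. The 3 untreated libraries came from cells with no drug, and the 3 pre-dose libraries from cells given 25 nM camptothecin (CPT), which traps topoisomerase 1 on DNA, for 1 h and harvested after 24 h without it. Both groups were the same line in the same medium, and the labels name no low-oxygen condition. The series title concerns NEDDylated cullin 3 and adaptation to topoisomerase 1 inhibitors.

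In cells with enough oxygen, the prolyl hydroxylases encoded by the EGLN genes mark the alpha subunits of HIF, and VHL, the substrate receptor of a cullin 2 ligase, then has them degraded. When oxygen is short, the alpha subunits pair with ARNT and bind short DNA elements next to genes for glucose uptake, glycolysis, lactate export and the turnover of mitochondria. Many of these genes are also expressed at a high basal level in cultured cells, and glycolytic genes answer to growth signals as well as to oxygen. HIF1A itself is regulated mainly through its protein, which these data do not measure.

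Effective library totals were 26336941 to 31780391 reads, and levels are given in CPM, reads scaled to a common library total. The replicate 1 libraries of both groups stood apart from the other 4, as the genes below show, so each value is also given by replicate number. Of 12 markers of retinal pigment epithelium, 3 (BEST1, MITF and OTX2) had a row, with a summed level of 65.4 to 69.3 CPM in untreated and 66.9 to 73.5 CPM in pre-dose libraries. RPE65, RLBP1 and TYR were among those with none. Of 6 markers of simple epithelium, 3 had a row, the keratins KRT8, KRT18 and KRT7, while KRT19, EPCAM and CDH1 had none. These keratins summed to 1323 to 1457 CPM in untreated and 1312 to 1353 CPM in pre-dose libraries. HBB, KRT10, and the list of SNAP25, TUBB3 and SYT1 were the only blood, keratinocyte and neuronal markers with a row, and endothelial markers had none. HBB ran from 17.2 to 19.0 CPM in untreated and 13.7 to 16.1 CPM in pre-dose libraries, KRT10 from 23.3 to 26.0 and 22.4 to 23.1 CPM, and the mesenchymal marker TAGLN from 909 to 1140 and 850 to 888 CPM. KRT18 alone ran from 431 to 461 CPM in untreated and 413 to 428 CPM in pre-dose libraries. HBB, KRT10, TAGLN and KRT18 were lower after the pre-dose without overlap, as were 3.19% of all genes. The other mesenchymal markers with a row, VIM, CDH2, FN1 and COL1A1, overlapped between the groups. The part of these markers in the differences of the members was not tested. No label says that the replicates were separate cultures, and the spread behind every p-value may therefore be technical.

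After the pre-dose, 27 of the 37 members had a fitted difference below 0 and 10 above 0, and none passed the test. The sign of 17 members turned when 1 library was left out. The differences were small: the median over the 37 genes was -0.06 on the log2(CPM + 1) scale, against -0.0013 over all 13616 genes tested, and the range was -0.27 (CA9) to 0.09 (PFKM). By pair, the median was -0.03, -0.05 and -0.09 in replicates 1, 2 and 3, against -0.0039, -0.0024 and 0.0012 over all genes. In bulk RNA, less RNA per cell and fewer cells that express a gene cannot be told apart. Lower in all 3 pairs were 17 of the 37, where 16.3% of all genes were, and 0 were higher in all 3, where 15.6% of all genes were. Pairs, and the block used below, join libraries by replicate number. For replicates 2 and 3 this is an assumption that the correlations between libraries do not settle.

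With limma-trend, 0 of 37 members and 0 of 13616 genes (0%) had an adjusted p of at most 0.05. At an unadjusted p under 0.05, 1 member was lower (SLC16A3, background 0.808%) and 0 were higher (background 1.25%). With the replicate number as a block, 0 members passed after adjustment (0% of all genes), and 12 had an unadjusted p under 0.05, all lower (background 5.40%), with 0 higher (background 5.20%). In replicates 2 and 3 alone, 6 members passed at an adjusted p of 0.05, all lower (background 3.47%), with 0 higher (background 2.89%). They were PFKFB3, PGK1, LDHA, PDK1, SLC16A3 and BNIP3. The authors' deposited table had 2 members past an adjusted p of 0.05, PFKFB3 and SLC16A3, both lower (background 1.45%), with 0 higher (background 1.61%). These fits all rest on the same 6 libraries. The pre-dose and untreated libraries did not overlap for 3 members, EGLN1, TPI1 and SLC16A3, all lower (background 3.19%), with 0 higher (background 3.36%). Counted in either direction, as in the fits that follow, 6.55% of all genes did not overlap. Without untreated replicate 1, 6 members had an unadjusted p under 0.05 (4.49% of all genes) and 17 did not overlap (23.6% of all genes). Without pre-dose replicate 1, 1 had such a p (10.2% of all genes) and 7 did not overlap (33.3% of all genes).

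**Figure D1:**
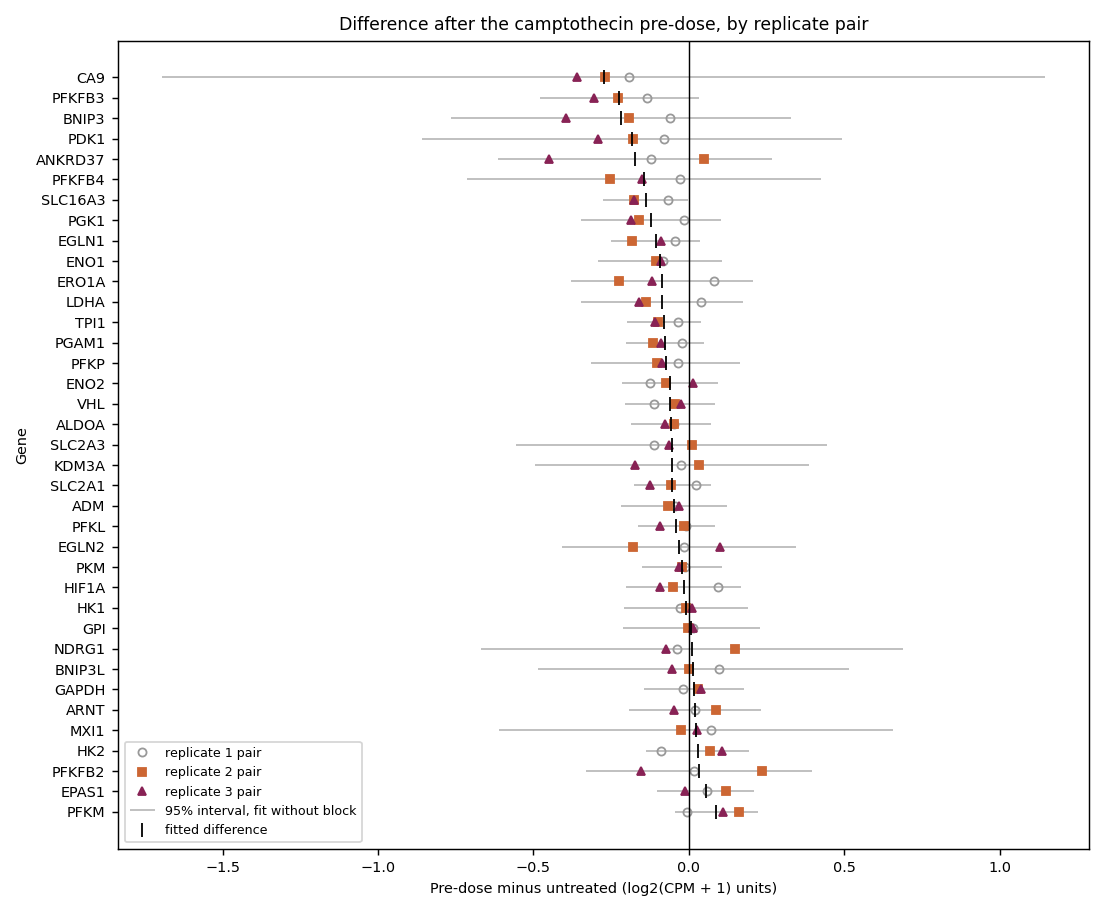
Difference between pre-dose and untreated libraries in log2(CPM + 1) units (x axis) for each of the 37 genes (y axis). Symbols are the 3 replicate pairs, ticks the fitted difference and bars its 95% interval without a block, and most symbols lie left of 0, with the replicate 3 pairs of ANKRD37, BNIP3 and CA9 farthest and intervals widest for genes whose replicate 1 libraries were low.

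Among the transcription factor subunits, HIF1A, which encodes the main oxygen-regulated alpha subunit, was the most abundant. It stood at 442, 526 and 521 CPM in untreated replicates 1, 2 and 3, and at 472, 508 and 488 CPM in the pre-dose libraries in that order. The groups overlapped, with the first pair higher after the pre-dose and the other 2 lower, and the fitted difference was -0.02 (95% interval -0.20 to 0.17). EPAS1, the second alpha subunit, ran from 44.2 to 49.0 CPM in untreated and from 47.5 to 51.0 CPM in pre-dose libraries. ARNT, their shared partner, ran from 29.5 to 34.8 CPM and from 29.9 to 35.2 CPM. Fitted differences were 0.055 for EPAS1 and 0.02 for ARNT, neither past the test. Levels per kilobase of exon were taken over all annotated exons of a gene, not the expressed transcript, so they compare genes only roughly. On this scale untreated HIF1A had 96.3 ± 9.09 CPM (SD, n = 3), EPAS1 6.44 ± 0.344 and ARNT 4.98 ± 0.412.

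The oxygen-sensing genes gave VHL at 46.4, 48.2 and 46.4 CPM untreated and 42.8, 46.7 and 45.7 CPM after the pre-dose, lower in each pair by at most 0.11. EGLN1, the principal HIF prolyl hydroxylase, stood at 63.6, 70.5 and 67.6 CPM in untreated libraries and 61.6, 62.0 and 63.5 CPM in pre-dose libraries. All 3 pre-dose values lay just under the lowest untreated value. Its difference was -0.11 (SE 0.061, adjusted p = 1.00 in limma), with an unadjusted p of 0.0398 under the block. EGLN2, another hydroxylase of the family, ran from 69.5 to 101 CPM over the 6 libraries, with both replicate 1 values above the other 4. Its pre-dose difference of -0.03 was small beside that offset.

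Glucose enters through the transporters encoded by SLC2A1 and SLC2A3. SLC2A1 stood at 562, 568 and 588 CPM in untreated and 572, 546 and 539 CPM in pre-dose libraries, a fitted difference of -0.05 with a first pair of opposite sign. SLC2A3 was much lower, at 12.3, 18.2 and 18.5 CPM and 11.3, 18.3 and 17.6 CPM. Both replicate 1 values of SLC2A3 lay below the other 4, and its pre-dose difference of -0.06 had an interval of -0.56 to 0.44. Per kilobase of exon, untreated SLC2A1 had 121 ± 2.94 CPM and SLC2A3 2.65 ± 0.562 CPM (SD, n = 3 each).

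**Figure D2:**
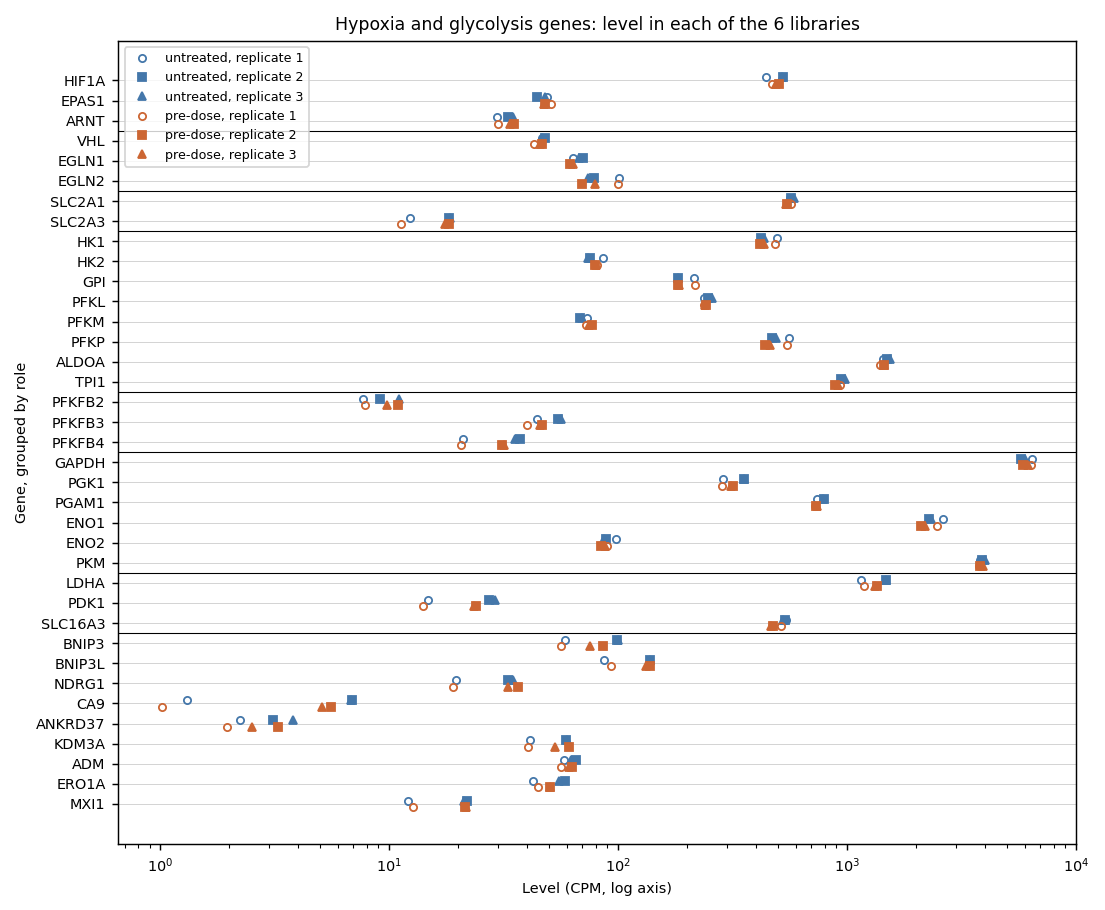
Level of each of the 37 genes in CPM on a log axis (x axis), grouped by role (y axis), with 1 symbol for each of the 6 libraries. Pre-dose and untreated symbols of 1 replicate lie close together, and the open replicate 1 circles lie left of the rest for CA9, NDRG1, PDK1, MXI1, PFKFB4, BNIP3, BNIP3L and SLC2A3.

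In the upper part of glycolysis, 5 of 8 members had a fitted difference below 0 and none passed. TPI1, the triose phosphate isomerase, had the smallest p. It stood at 954, 947 and 981 CPM untreated and 931, 884 and 910 CPM after the pre-dose, so its groups did not overlap, and the difference was -0.08 (SE 0.051, adjusted p = 1.00 in limma). ALDOA, the main aldolase, stood at 1440, 1497 and 1537 CPM in untreated and 1392, 1449 and 1459 CPM in pre-dose libraries, lower in each pair by 0.05 to 0.08 with overlapping groups. PFKP, the platelet-type phosphofructokinase, stood at 561, 470 and 491 CPM untreated and 547, 438 and 463 CPM after the pre-dose. Its replicate 1 libraries were the 2 highest of the 6. PFKL, the liver-type subunit, also was lower in each pair, by 0.01 to 0.09.

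PFKM, the muscle-type subunit, had the highest fitted difference of the set, 0.09 (interval -0.05 to 0.22). It stood at 73.0, 68.4 and 69.5 CPM in untreated and 72.7, 76.7 and 75.1 CPM in pre-dose libraries, so the replicate 1 pair was level and the other 2 pairs were higher. HK2, the inducible hexokinase, stood at 86.0, 75.6 and 74.2 CPM untreated and 80.9, 79.3 and 80.0 CPM after the pre-dose. Its first pair was lower and the other 2 higher, and the difference was 0.03. HK1, the widely expressed hexokinase, and GPI, the phosphoglucose isomerase, differed by -0.01 and 0.0079. In untreated libraries, HK1 had 71.4 ± 6.38 and HK2 13.0 ± 1.07 CPM per kilobase (SD, n = 3 each). The phosphofructokinase subunits were at 105 ± 9.78 (PFKP), 27.7 ± 1.03 (PFKL) and 9.61 ± 0.329 (PFKM) CPM per kilobase (SD, n = 3 each).

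The PFKFB enzymes make and break down a fructose bisphosphate that activates phosphofructokinase, and PFKFB3 favours its synthesis. PFKFB3, on chromosome 10 from 6144934 to 6254644 on the forward strand (GRCh38), stood at 44.2, 54.5 and 56.6 CPM in untreated replicates 1, 2 and 3. After the pre-dose it stood at 40.1, 46.4 and 45.6 CPM. Each pair was lower, by 0.14, 0.23 and 0.31, and the groups overlapped through the low untreated replicate 1. The fitted difference was -0.22 (SE 0.108, unadjusted p = 0.0770, adjusted p = 1.00 in limma), and with the block its unadjusted p was 0.00154 and its adjusted p 0.257. In replicates 2 and 3 alone it was -0.27 (adjusted p = 0.00704), and the authors' deposited table gave -0.28 with an adjusted p of 0.0372.

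PFKFB4, another isoform of the family, stood at 21.1, 37.2 and 35.4 CPM untreated and 20.7, 31.1 and 31.8 CPM after the pre-dose. It was lower in each pair, by 0.03, 0.25 and 0.15, and both replicate 1 values lay well under the other 4. PFKFB2 stood at 7.72, 9.13 and 11.02 CPM and 7.83, 10.9 and 9.81 CPM, with pairs of both signs. Per kilobase, PFKFB3 had 8.47 ± 1.09, PFKFB4 5.12 ± 1.44 and PFKFB2 0.911 ± 0.162 CPM in untreated libraries (SD, n = 3 each).

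In the lower part of glycolysis, 4 of 6 members were lower in all 3 pairs: PGK1, PGAM1, ENO1 and PKM. PGK1, the phosphoglycerate kinase, stood at 288, 356 and 356 CPM in untreated and 285, 318 and 313 CPM in pre-dose libraries. Its first pair was nearly level, at -0.02, and the others differed by -0.16 and -0.19. The fitted difference was -0.12 (SE 0.0961, adjusted p = 1.00), and -0.17 in replicates 2 and 3 alone (adjusted p = 0.00928 in limma). ENO1, the main enolase, stood at 2619, 2273 and 2324 CPM untreated and 2473, 2111 and 2184 CPM after the pre-dose. The 3 pairs differed by -0.08, -0.11 and -0.09, nearly the same amount, although the replicate 1 libraries held the highest levels.

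PGAM1, a phosphoglycerate mutase, ran from 727 to 796 CPM over the 6 libraries and was lower in each pair by 0.02 to 0.11. GAPDH, the most abundant member, stood at 6465, 5770 and 5989 CPM and 6374, 5894 and 6152 CPM, a difference of 0.02 (interval -0.15 to 0.18). PKM, the pyruvate kinase, stood at 3810, 3883 and 4000 CPM and 3774, 3828 and 3912 CPM, lower in each pair by at most 0.03. ENO2, the second enolase, differed by -0.06 with pairs of both signs. GAPDH had 2038 ± 119, ENO1 456 ± 35.4 and PKM 455 ± 11.2 CPM per kilobase in untreated libraries (SD, n = 3 each), so ENO1 and PKM did not differ beyond their spread. Reads of these genes may be shared with processed copies: by name, GENCODE release 29 lists 62 pseudogenes of GAPDH, 39 of BNIP3, 13 of PGAM1 and 1 to 6 for each of 10 other members, and how the authors' counting split such reads is not given in the sources used here. Exons of 22 members overlap another gene's exons, which cannot be separated without a known strand setting.

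**Figure D3:**
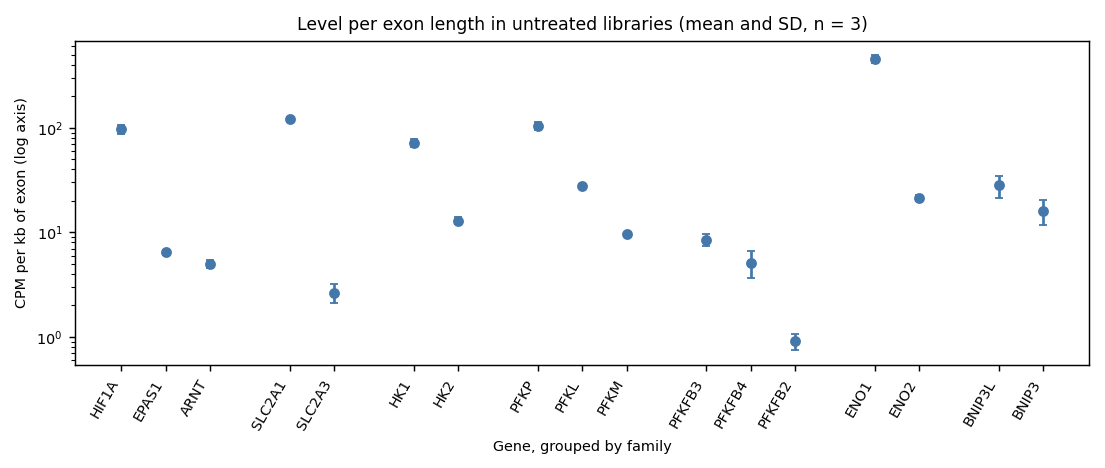
Level per kilobase of all annotated exons in untreated libraries (y axis, CPM per kb on a log axis) for members of 7 groups of related genes (x axis). Points are means and bars the SD of 3 libraries. HIF1A, SLC2A1, HK1, PFKP and ENO1 were the highest of theirs, and the SD bars of BNIP3L and BNIP3 nearly meet.

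Pyruvate is turned into lactate by LDHA, kept from oxidation by the mitochondrial kinase PDK1, which inhibits pyruvate dehydrogenase, and the lactate leaves through SLC16A3. All 3 members had a fitted difference below 0, and none passed with all libraries, with or without the block. In replicates 2 and 3 alone, with 2 libraries a group, all 3 passed as lower, where 3.47% of all genes did. SLC16A3, the MCT4 lactate exporter (chromosome 17, 82228397 to 82261129, forward strand), stood at 539, 535 and 524 CPM in untreated and 515, 474 and 464 CPM in pre-dose libraries. All 3 pre-dose values lay below all 3 untreated ones. The difference was -0.14 (SE 0.0581, unadjusted p = 0.0466, adjusted p = 1.00 in limma), and -0.18 in replicates 2 and 3 alone (adjusted p = 0.00949). The authors' deposited table gave -0.18 with an adjusted p of 0.0351.

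LDHA stood at 1152, 1484 and 1485 CPM untreated and 1185, 1348 and 1328 CPM after the pre-dose. Its replicate 1 pair was higher by 0.04 and the others lower by 0.14 and 0.16. A test of that difference between replicate 1 and the others gave 0.19 with an unadjusted p of 0.00596 and an adjusted p of 0.172 in limma. PDK1 stood at 14.9, 27.4 and 28.9 CPM untreated and 14.0, 24.1 and 23.4 CPM after the pre-dose, lower in each pair by 0.08, 0.18 and 0.29. Replicates 2 and 3 alone gave LDHA -0.15 (adjusted p = 0.0208) and PDK1 -0.24 (adjusted p = 0.0410) in limma.

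Among the other HIF targets, BNIP3 and BNIP3L encode receptors for the removal of mitochondria. BNIP3 (chromosome 10, 131966455 to 131982013, reverse strand) stood at 58.9, 99.0 and 99.7 CPM untreated and 56.4, 86.4 and 75.5 CPM after the pre-dose. Its 3 pairs were lower by 0.06, 0.19 and 0.40, and replicates 2 and 3 alone gave -0.30 (adjusted p = 0.0117 in limma). The fitted difference over all libraries was -0.22 with a wide interval, -0.76 to 0.33. BNIP3L ran from 87.3 to 138 CPM over the 6 libraries, with pairs of both signs and a difference of 0.015. Per kilobase, BNIP3L had 28.1 ± 6.77 and BNIP3 16.1 ± 4.39 CPM in untreated libraries (SD, n = 3 each).

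CA9, a carbonic anhydrase of the cell surface that is widely used as a hypoxia marker, was near the low end of the set. It stood at 1.31, 6.92 and 6.83 CPM untreated and 1.02, 5.57 and 5.11 CPM after the pre-dose, from 32 to 207 estimated reads a library. Each pair was lower, by 0.19, 0.27 and 0.36, an amount far below the gap between replicate 1 and the others. NDRG1, a stress-responsive gene of growth control, stood at 19.6, 33.0 and 34.9 CPM and 19.0, 36.7 and 33.1 CPM. ANKRD37, an ankyrin repeat gene, stood at 2.23, 3.12 and 3.80 CPM and 1.97, 3.26 and 2.51 CPM, from 62 to 115 estimated reads. Fitted differences were -0.27 for CA9, 0.01 for NDRG1 and -0.17 for ANKRD37, each with an adjusted p of 1.00 in limma.

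ADM, which encodes the vasodilator peptide adrenomedullin, stood at 58.2, 65.8 and 62.4 CPM untreated and 56.4, 62.8 and 60.9 CPM after the pre-dose, lower in each pair by at most 0.07. ERO1A, an oxidase of protein folding, ran from 42.4 to 58.9 CPM over the 6 libraries, with a first pair of opposite sign to the other 2. MXI1, an antagonist of MYC, stood at 12.1, 21.9 and 21.2 CPM and 12.8, 21.5 and 21.6 CPM, within 0.07 in each pair. KDM3A, a histone demethylase, ran from 41.3 to 60.1 CPM untreated and from 40.6 to 61.0 CPM after the pre-dose. None of these passed.

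**Figure D4:**
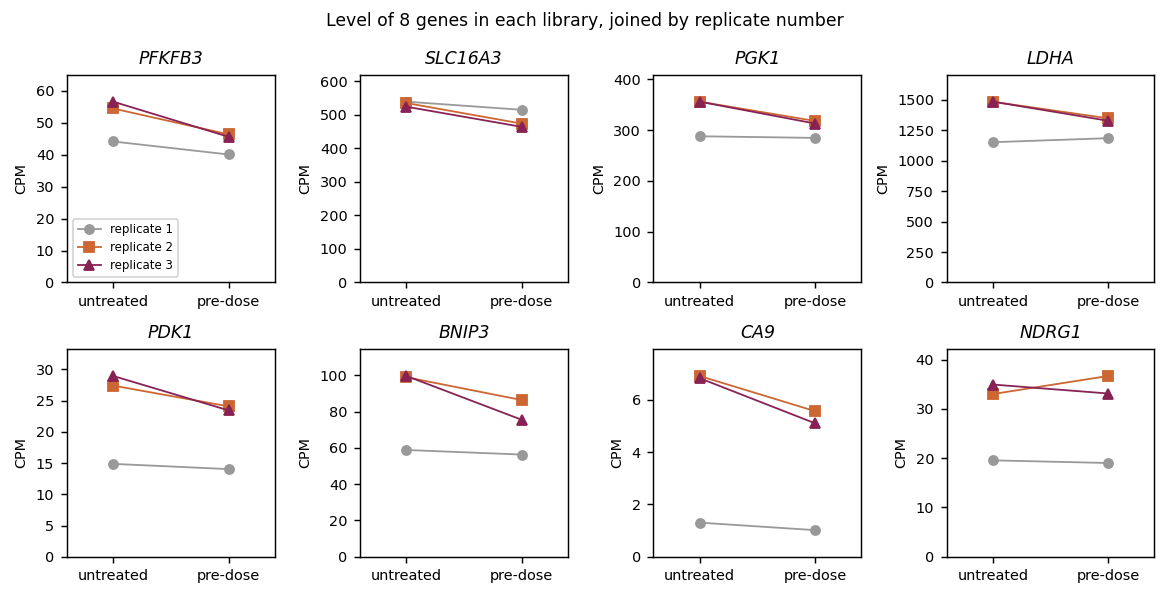
Level in CPM (y axis, from 0) of 8 genes in untreated and pre-dose libraries (x axis), with lines joining libraries of 1 replicate number. PFKFB3, SLC16A3, PGK1, PDK1, BNIP3 and CA9 slope down in every pair, LDHA in 2 of 3 and NDRG1 in 2 of 3, and the replicate 1 line lies below the others for all but SLC16A3.

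Whether the pre-dose difference itself varied between replicate 1 and the other replicates was tested with an interaction term. In limma, 0 of 37 members passed at an adjusted p of 0.05, where 1.11% of all genes did. At an unadjusted p under 0.05 there were 6 members, where 12.3% of all genes were: HIF1A, PGK1, LDHA, BNIP3 and ERO1A with a less negative or more positive difference in replicate 1, and HK2 with the opposite. The residual spread of this test comes from replicates 2 and 3.

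The larger split of these genes ran between replicate 1 and replicates 2 and 3, in untreated and pre-dose libraries alike. It was tested because these libraries were already known to stand apart in these data, so its p-values are descriptive. The 2 replicate 1 libraries share a replicate number and may not be independent, which these p-values do not allow for. With the treatment in the model, 18 of 37 members were lower and 6 higher in replicate 1 at an adjusted p of 0.05 in limma, against 20.6% and 20.3% of all genes. The 2 replicate 1 libraries lay below all 4 others for 21 members (28.3% of all genes) and above them for 9 (27.2% of all genes). A difference of at least 0.5 log2 units downward, with a call, was found for 9 members, against 3.18% of all genes. The median over the 37 members was -0.07 and over all genes -0.0118, with members from -1.71 to 0.42, so the largest differences were downward.

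All 9 of the other HIF targets were called lower in replicate 1, as were 20.6% of all genes. CA9 had 1.16 CPM as the mean of replicate 1 and 6.11 CPM as that of the other 4, a difference of -1.71 (SE 0.0986, adjusted p = 1.41e-05 in limma). NDRG1 (-0.80), MXI1 (-0.75), BNIP3 (-0.63), BNIP3L (-0.59) and KDM3A (-0.50) followed. ANKRD37, ERO1A and ADM differed by -0.42, -0.29 and -0.13. Every replicate 1 value of these 9 genes was below every value of the other replicates.

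Among the other roles the split went both ways. PDK1 (-0.80, SE 0.0615), PFKFB4 (-0.67, SE 0.0576), SLC2A3 (-0.58, SE 0.0622), PFKFB2 (-0.35), LDHA (-0.27), PFKFB3 (-0.26) and PGK1 (-0.23) were lower in replicate 1. EGLN2, of the oxygen-sensing genes, was higher by 0.42 (SE 0.0546). The glycolytic genes PFKP (0.25), GPI (0.23), HK1 (0.20), ENO1 (0.20) and GAPDH (0.11) were higher as well. HIF1A was lower by 0.16 and ARNT by 0.19, both past the test, while EPAS1 (0.09, adjusted p = 0.156), VHL, EGLN1 and SLC2A1 were not called. By role, 3 of 3 PFKFB genes were lower, 3 of 8 genes of the upper pathway were higher with 0 lower, and the lower pathway had 1 lower and 2 higher of 6. Of all genes, 20.6% were lower and 20.3% higher, and groups this small give no firm pattern by role.

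**Figure D5:**
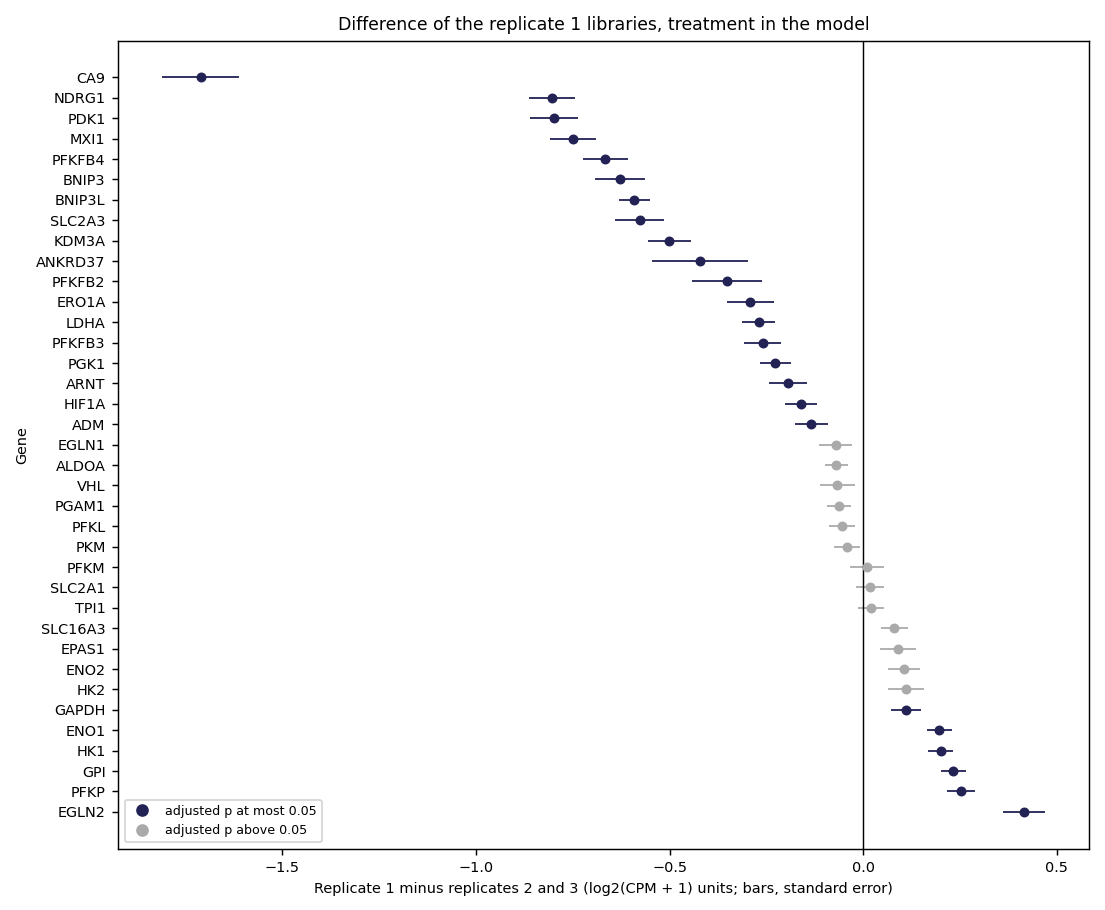
Replicate 1 minus replicates 2 and 3 in log2(CPM + 1) units (x axis) for the 37 genes (y axis), from a fit with the treatment; points are estimates, bars standard errors, and dark points had an adjusted p of at most 0.05. CA9 is farthest to the left at -1.71 and EGLN2 farthest to the right at 0.42.

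Other features moved with this split. The mesenchymal markers VIM, CDH2, FN1, COL1A1 and TAGLN summed to 25063 to 25266 CPM in replicate 1 and 29499 to 31192 CPM in the others. Within that list FN1 was lower in replicate 1 (12585 and 13191 against 18993 to 20411 CPM) and VIM higher (11123 and 10806 against 8644 to 9112 CPM). The neuronal list, mostly TUBB3, summed to 398 to 420 CPM in replicate 1 and 285 to 315 CPM in the others. Within it only TUBB3 was higher in replicate 1 (400 and 374 against 255 to 284 CPM). SYT1 was lower (19.3 and 22.5 against 25.3 to 30.0 CPM), and SNAP25 overlapped. The summed pigment epithelium markers were 65.4 to 66.9 and 67.6 to 73.5 CPM. Totals of 29468180 and 31780391 reads in replicate 1 and 26336941 to 30351516 in the others overlapped. The labels name no batch, and the part of these features in the result was not tested.

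HIF binds DNA at a core of A or G followed by CGTG, and letters next to start sites are described here. Whether this core had a part in the split of replicate 1 was not tested. The core was searched as ACGTG or GCGTG, or CACGT or CACGC on the other strand, in the 250 bases before each RefSeq start (GRCh38.p14). ACGTG and CACGT overlap where the letters read CACGTG. Of the 37 members, 32 had a start in the table, with 63 starts in all. At least 1 match was found for 28 of the 32 genes, and for 47.4% of the 27305 genes of the table. These windows were also richer in G and C, with a median of 68.4% over the members' starts and 58.0% over all starts. Among members lower in replicate 1, 13 of 14 had a match, among those higher 6 of 6, and among those not called 9 of 12. Members had more listed starts per gene than genes at large. Per start, 60.3% of the members' starts held a match against 43.2% of all starts, with 81.0% of 21 starts of lower, 43.8% of 16 starts of higher and 53.8% of 26 starts of uncalled members. A match is a description of letters and not a site of binding. Only stretches with a match are printed, from some of the members with 1 listed start. Windows before a RefSeq start can lie in exons that GENCODE annotates. All 250 bases did so for ANKRD37, ERO1A, ENO1 and GPI, 155 for PFKFB4 and 117 for CA9. The BNIP3 and PGK1 stretches are the longest parts of their windows outside such exons. ARNT, lower in replicate 1, and PGAM1, PKM and SLC2A1, not called there, had no match. The stretches are written 5′ to 3′ on the gene's strand with the core in capitals, and the first 6 were lower and the last 2 higher in replicate 1.
CA9 (chr9:35673898-35673926, forward): tcgtttccaatgCACGTacagcccgtaca
PFKFB4 (chr3:48556953-48556981, reverse): tgagttgggcatGCGTGgtcggaggccgg
ANKRD37 (chr4:185396686-185396714, forward): cagtgtttgtgtACGTGcggccgtggcgg
ERO1A (chr14:52695656-52695684, reverse): cgggcgccgcggCACGTccacaggctggg
BNIP3 (chr10:131982014-131982173, reverse): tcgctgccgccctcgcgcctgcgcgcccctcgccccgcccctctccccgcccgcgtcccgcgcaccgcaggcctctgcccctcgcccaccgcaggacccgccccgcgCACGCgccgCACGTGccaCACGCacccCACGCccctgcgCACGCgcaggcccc
PGK1 (chrX:78103998-78104173, forward): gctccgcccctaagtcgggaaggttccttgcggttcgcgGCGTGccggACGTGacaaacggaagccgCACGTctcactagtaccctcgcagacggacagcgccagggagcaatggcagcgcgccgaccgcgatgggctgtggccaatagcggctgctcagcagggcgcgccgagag
ENO1 (chr1:8878742-8878770, reverse): ggagctgaggggGCGTGccccggaggcgg
GPI (chr19:34364818-34364846, forward): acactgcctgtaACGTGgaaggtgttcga
The match of CA9 begins 18 bases before its start. BNIP3 has 6 matches and PGK1 3 in the stretches shown. ENO1 and GPI, which were higher in replicate 1, hold the core as well.

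Other genes of the pathway were taken from a list of 86, of which 69 had a row and were tested. In limma 0 of 69 passed for the pre-dose, and at an unadjusted p under 0.05, 3 were lower and 1 higher (background 0.808% and 1.25%). In replicates 2 and 3 alone, 7 were lower and 4 higher at an adjusted p of 0.05 (background 3.47% and 2.89%). All 7 lower genes, and 1 of the higher, belonged to a list of 34 other hypoxia-responsive genes. PDK2 and CITED2 were among the higher. The smallest p among lower genes belonged to HILPDA, a lipid droplet protein, with -0.29 (6.54 to 5.14 CPM, group means), TFRC, the transferrin receptor, with -0.19 (144 to 126 CPM) and SIAH2, a ubiquitin ligase, with -0.16 (21.4 to 19.1 CPM). Among higher genes it belonged to PDK2, a pyruvate dehydrogenase kinase, with 0.19 (40.8 to 46.5 CPM), CITED2, an inhibitor of HIF, with 0.20 (343 to 392 CPM) and PDP1, the opposing phosphatase, with 0.15 (48.3 to 53.7 CPM). CITED2 differed by -0.09 in the replicate 1 pair and by 0.35 and 0.34 in the others, and this difference passed the interaction test (adjusted p = 0.00521). The prolyl hydroxylase of collagen P4HA1, named after its values were seen, was the other of the 69 to pass it (adjusted p = 0.0459), with pairs of 0.06, -0.37 and -0.36. Of all genes, 1.11% passed that test.

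The split of replicate 1 was also present in these genes. Of 34 other hypoxia-responsive genes, 27 were lower in replicate 1 and 1 higher at an adjusted p of 0.05 (background 20.6% and 20.3%), with a median of -0.33. Of 11 further HIF pathway factors, among them CUL2, ELOB, ELOC and RBX1 of the VHL ligase, 0 were called, and their median was -0.0030. VEGFA, the angiogenic growth factor, differed by -0.63 and PPFIA4 by -1.29, both named after their values were seen. The 11 other glycolytic isoforms had 5 lower and 1 higher, and the 13 genes of pyruvate oxidation and lactate transport 2 lower and 2 higher, the last shares being no larger than the background.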

How the data were processed

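Poly-A RNA of 3 untreated and 3 pre-dose samples of hTERT RPE-1 cells was sequenced as paired reads, per the labels' protocols. The authors deposited 1 table of 13773 rows, of which 77 repeated an identifier and were dropped. Its expression values are log2 CPM: the lowest value of each column, taken as no reads plus an offset of 0.5, puts 100% of values under 200 reads on steps of a hundredth of a read, to within 0.05 of a step, and 53.0 to 55.8% of them on whole reads. The authors' deposited comparison also holds log2 fold changes, p-values and a moderated statistic (a score), per the file headers, and its sign is given as pre-dose minus untreated. Its signed linear fold was not used. Per the submitters' processing notes the tools were limma, edgeR, DRAGEN and bcl2fastq, without versions, and the build was hg38. The strand setting, annotation and counter: not given in the sources used here.

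Values were tested as log2(CPM + 1), a scale that understates differences of low genes, with limma-trend (limma 3.58.1, R 4.3.3) over the 13616 genes whose mean reached 1 CPM. P-values are two-sided and adjusted over all these genes by the Benjamini-Hochberg method, with a threshold of 0.05. Further fits held the replicate number as a block, a term for replicate 1 with the treatment, or their interaction. The fits were tested on simulated data. Deviations from group means of same-numbered libraries correlated across genes by 0.66, 0.45 and 0.18 for replicates 1, 2 and 3. Crossed libraries reached 0.51 (untreated replicate 3 with pre-dose replicate 2) and 0.28 (untreated replicate 2 with pre-dose replicate 3). These correlations set replicate 1 apart and do not settle how replicates 2 and 3 pair. Same-numbered libraries were treated as pairs, which for replicates 2 and 3 rests on the numbers alone. Libraries of 1 group differed by more than counting noise, with a mean chi-square per gene of 2.23 to 49.3, where counting alone gives about 1. At these depths 3 counts are 0.0944 to 0.114 CPM, which covers counting error only.

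Members, lists and tests were chosen with earlier results of these data known. Members are named with their values when in a fixed core list, when past a threshold, or when first by p in their role, and related genes when among the 3 smallest p in a direction. Positions and exon lengths are from GENCODE release 29 (GRCh38), which held all 37 members. Start-site sequences are from RefSeq (GRCh38.p14). Alternatives were other pseudocounts, filters, scalings, library weights, subsets of libraries and the block. A further marker of the pigment epithelium is not reported here. Figures were drawn with matplotlib 3.10.9.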

Additional observations from a re-analysis of the deposited data

How the results depend on the processing

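Pseudocounts of 0.5 and 2 CPM, no filter, a mean of at least 5 CPM (35 members left), median-ratio scaling and quantile normalization left the number of called members at 0 and changed the sign of 0 members. The replicate block kept the fitted differences and raised the members at an unadjusted p under 0.05 from 1 to 12. Library quality weights called 189 genes and 1 member, SLC16A3 (adjusted p = 0.0495), with 11 members (10 lower and 1 higher) at an unadjusted p under 0.05, as were 20.2% of all genes. The default estimate of those weights did not converge, and the gene-by-gene estimate was used. Replicates 2 and 3 alone called 866 genes and 6 members, with 17 (15 lower and 2 higher) at an unadjusted p under 0.05 (21.0% of all genes). There 20 members did not overlap (18 lower and 2 higher), as did 51.0% of all genes with only 2 libraries a group, from 3 with all libraries. Quality weights and replicates 2 and 3 alone turned HK1 (to 0.0103 and 0.0010) and BNIP3L (to -0.0299 and -0.0259).

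With 1 library left out, members at an unadjusted p under 0.05 numbered 0 to 6 (6 without untreated replicate 1, 0 without untreated replicate 2 or 3 or pre-dose replicate 2 or 3). The median member difference ran from -0.0931 without untreated replicate 1 to -0.0277 without pre-dose replicate 1, and members without overlap from 3 to 17, the latter with fewer libraries to compare. Leaving out 1 of the replicate 1 libraries lets the offset of the other enter a fit without a block. The sign turned in at least 1 such fit for 17 members, whose differences ran from -0.0970 to 0.0275 (HIF1A), -0.0445 to 0.0850 (ARNT), -0.1739 to 0.1028 (EGLN2), -0.2339 to 0.1514 (SLC2A3), -0.0707 to 0.0624 (HK1), -0.0107 to 0.0949 (HK2), -0.0710 to 0.0841 (GPI), -0.0802 to 0.1543 (PFKFB2), -0.3944 to 0.0495 (PFKFB4), -0.0199 to 0.0621 (GAPDH), -0.4765 to 0.0559 (PDK1), -0.2024 to 0.1916 (BNIP3L), -0.2439 to 0.2917 (NDRG1), -0.8640 to 0.2766 (CA9), -0.2294 to 0.1045 (KDM3A), -0.2260 to 0.0063 (ERO1A) and -0.2377 to 0.2617 (MXI1). The other 20 members kept their sign in those 6 fits, and 14 of them moved by over 1.5 times in at least 1, such as BNIP3 (-0.4656 to -0.0467), LDHA (-0.2081 to -0.0248), ANKRD37 (-0.3279 to -0.0427) and PFKP (-0.1681 to -0.0005). EGLN1, PFKM, TPI1, PFKFB3, PGAM1 and SLC16A3 did not. Replicate 1 calls of members numbered 21 to 25 without 1 library of replicates 2 or 3.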
